A study of Gallus gallus with 4 samples.

Results

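The CAP-H pull-down is 1 library of streptavidin-purified DNA from mitotic chicken DT40 cells, with 1 input library beside it. Its members are every row of its peak list, 4369 peaks of the 10843 in the lists of the series' pull-downs, and all 10001 positions of its profile around transcription start sites (TSSs). DT40 is a B cell lymphoma line. The cells lacked the native CAP-H gene and carried a transgene of CAP-H fused to SBP, a streptavidin-binding tag. Doxycycline at 2 ng/ml shut off the untagged protein, so the tagged form was the only CAP-H present, and 500 ng/ml nocodazole, which blocks spindle assembly, held the cells in mitosis. They were crosslinked with 1% formaldehyde before the DNA was purified. The input came from cells with the same transgene and had no streptavidin step. There were no replicates, so no comparison has a replicate check, and no test between libraries was run.

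Condensins are ring-shaped ATPases that fold chromatin into loops and shape mitotic chromosomes. SMC2 and SMC4 form the core of the ring, and CAP-H is the kleisin, the subunit that bridges their ATPase heads and closes it. CAP-H belongs to condensin I, which reaches the chromosomes after the nuclear envelope breaks down, whereas condensin II uses another kleisin, CAP-H2. In mitotic cells of several species, condensin has been found near promoters and other sites of active genes.

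CAP-H peaks were mostly short, with a long tail of wide ones. The median width was 1380 bp, the middle 50% of peaks ran from 946 to 2195 bp, and the extremes were 366 bp and 30276 bp. Of the 4369 peaks, 1179, or 27.0% (95% exact binomial interval 25.7 to 28.3, here and below for counting error only), were at least 1000 bp and under 1500 bp. Another 744 peaks were between 750 and 1000 bp, and 25 were under 500 bp. The narrowest, of 366 bp, lay on chromosome 7 from 1108330 to 1108695 (build galGal4). The widest 10% of peaks, all of 3372 bp or more, held 29.1% of the 8.08 Mb that the list covered, while the narrowest 10%, all of 732 bp or less, held 3.42%.

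Width differed little between chromosome classes, apart from the Z chromosome and the sequences not placed on a chromosome. The median was 1402.5 bp (interquartile range 995.5 to 2085) on the macrochromosomes, 1 to 5, with 1160 peaks. On chromosomes 6 to 10 it was 1391 bp (960 to 2201) over 575 peaks, and on the microchromosomes, 11 to 28, it was 1510 bp (1018 to 2435) over 1935 peaks. The 94 peaks of the Z chromosome had a median of 910 bp (732 to 1461). The 95% order-statistic interval of that median, 826 to 1097 bp, lay below the intervals of the 3 autosome classes, of which the lowest bound was 1311 bp. Such intervals treat the peaks of 1 library as independent, and whether they overlap is not a test. Peaks on unplaced sequence were also narrower, with a median of 1055 bp (801 to 1578) over 604 peaks. Of these peaks, 43 began within 2 bases of the first base of their sequence, against 2 on placed chromosomes, and the part of sequence length in the narrower widths was not tested.

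**Figure D1:**
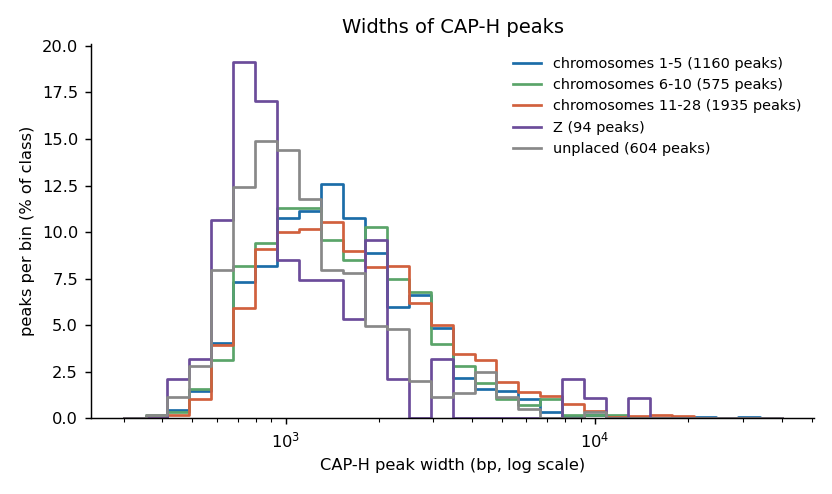
Widths of CAP-H peaks by chromosome class. The x axis is the width in bp on a log scale, the y axis the share of the class's peaks in each bin, and each line a class of chromosomes; the 3 autosome classes lie close together, while the Z chromosome (median 910 bp) and unplaced sequence (1055 bp) are shifted to shorter widths.

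Of the 27 chromosomes with at least 50 peaks, chromosome 20 had the widest, with a median of 1940 bp (interquartile range 1382 to 2822), and Z the narrowest. Chromosome 2, with a median of 1748.5 bp (1302 to 2514), was the widest of the macrochromosomes; its neighbours in size, chromosomes 1 and 3, had 1228 bp (900.5 to 1986) and 1238 bp (929 to 1772). The interquartile ranges of chromosomes 1, 2, 3 and 20 overlap, and that of Z reached only the lowest part of the range of chromosome 20. Such ranges give the spread of single peaks and not the error of a median. No interval of the median width was set for single autosomes.

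Gaps between neighbouring CAP-H peaks ranged from a few bases to several Mb, and on a log scale had a small maximum below 1 kb and a main maximum at much longer gaps. The list gave 3861 gaps, measured from the end of a peak to the start of the next on the same sequence, and no peaks overlapped. The median gap was 32.9 kb (95% order-statistic interval 29.6 to 37.1) and the mean 257 kb, 7.79 times the median. Gaps of up to 1 kb made up 17.3% (16.1 to 18.5), or 668 gaps, and those of up to 5 kb 28.1% (26.7 to 29.6), or 1086 gaps. A similar number, 655, or 17.0% (15.8 to 18.2), were over 1 kb and up to 10 kb, so short and long gaps were not cleanly separated. At the other end, 287 gaps were over 1 Mb and held 56.9% of all the distance between peaks.

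The pattern of short and long gaps was present in each autosome class, but the long gaps differed in size. In bins of 4 per factor of 10, the fullest short bin was that from 562 to 1000 bp in all 3 classes, with 3.81% of the gaps on macrochromosomes, 6.14% on chromosomes 6 to 10 and 6.10% on microchromosomes. The fullest long bin ran from 562341 to 1000000 bp on macrochromosomes, from 31623 to 56234 bp on chromosomes 6 to 10 and from 17783 to 31623 bp on microchromosomes. Between them the counts per bin fell. On macrochromosomes the lowest bin, from 1778 to 3162 bp, held 19 gaps, against 44 in the fullest short bin and 128 in the fullest long bin. On microchromosomes the dip was shallower, with 86 gaps from 1000 to 1778 bp between bins of 117 and 214. On chromosomes 6 to 10 the place of the long bin was loosely set. It held 50 gaps, against 49 from 10000 to 17783 bp and 49 from 56234 to 100000 bp. The lowest bin there, from 3162 to 5623 bp, held 18. The place of the short bin thus did not move between classes at this bin size. That of the long bin differed by more than a factor of 10 between macrochromosomes and microchromosomes.

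**Figure D2:**
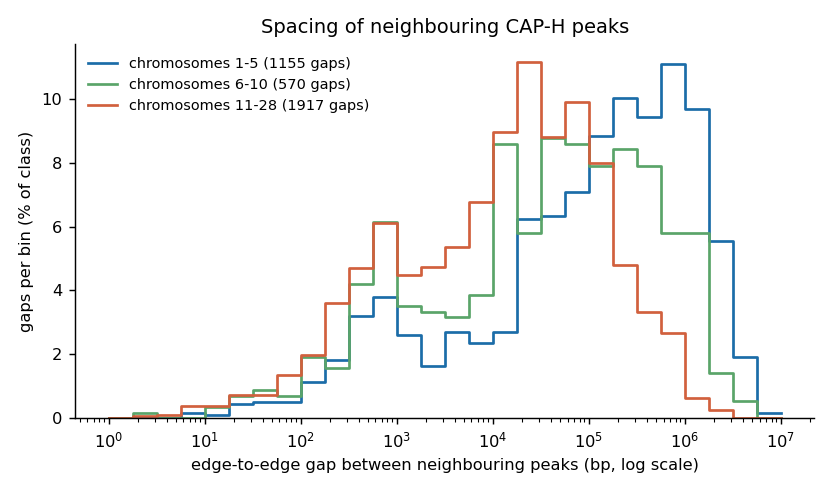
Gaps between neighbouring CAP-H peaks on chromosomes 1 to 5, 6 to 10 and 11 to 28. The x axis is the edge-to-edge gap in bp on a log scale and the y axis the share of the class's gaps per bin. Each line has a first maximum at 562 to 1000 bp and a second at longer gaps. The second is farthest to the right for chromosomes 1 to 5 and broad for chromosomes 6 to 10.

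The median gap was 155 kb (interquartile range 20.7 to 701) on macrochromosomes, 43.2 kb (4.51 to 256) on chromosomes 6 to 10, 17.4 kb (1.85 to 73.5) on microchromosomes and 295 kb (25.01 to 1174) on Z. The share of gaps up to 5 kb followed the reverse order, at 17.8% (15.7 to 20.2), 25.8% (22.2 to 29.6), 33.3% (31.2 to 35.4) and 12.9% (6.85 to 21.5). On macrochromosomes 119 of 1155 gaps, each of at least 1.47 Mb, held 50% of the distance between peaks. On microchromosomes 106 of 1917 gaps, each of at least 0.404 Mb, did so. The number of copies of each chromosome in the cells was not measured here.

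Among the 27 chromosomes, Z had the longest median gap and chromosome 18 the shortest, at 6.70 kb (0.871 to 61.0). Chromosome 27, at 6.76 kb (1.08 to 24.6), and chromosome 28, at 9.51 kb (1.05 to 33.3), were close to it. Their interquartile ranges overlapped that of chromosome 18, but such ranges do not give the error of a median. Chromosome 27 had the highest share of gaps up to 5 kb, 47.1% (39.1 to 55.3). Chromosome 2 had the lowest, 10.04% (6.77 to 14.2), together with a median gap of 245 kb (54.3 to 757), so its wide peaks also stood far apart. The mean gap was above the median on all 27 chromosomes, from 1.92 times on chromosome 26 to 12.2 times on chromosome 18.

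The 5 widest gaps between neighbouring CAP-H peaks lay on macrochromosomes and Z. The widest, of 8.24 Mb, was on chromosome 3 from 85068665 to 93305686. Chromosome 4 had a stretch of 6.50 Mb, from 68899514 to 75400271, and chromosome 2 one of 5.50 Mb, from 68406608 to 73908835. On Z the stretch from 18032300 to 23429324 was of 5.40 Mb, and on chromosome 1 that from 34329983 to 39614355 was of 5.28 Mb. The most isolated peak, of 1824 bp, bordered the first of these: it lay on chromosome 3 from 85066841 to 85068664, with its nearest neighbour 4.15 Mb away. Whether reads can be placed throughout these stretches was not tested. Stretches between a chromosome end and its first or last peak were not measured.

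At the other extreme, some neighbours were separated by a few bases. The closest pairs were 2 bp apart, on chromosome 14 (6131481 to 6133122 and 6133125 to 6137247) and on chromosome 8 (27591926 to 27595980 and 27595983 to 27600447). A pair on chromosome 27, with its right peak from 5060757 to 5063759, was 4 bp apart, and one on chromosome 25, with its right peak from 1432552 to 1433452, was 5 bp apart. Another 5 pairs, on chromosomes 3, 18, 20 and 25, were 6 bp apart. In all, 113 gaps, or 2.93% (2.42 to 3.51), were of 100 bp or less, which is about the length of 2 reads of 50 bp. The file has no score or summit, so regions split by the caller and separate regions side by side cannot be told apart.

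Peaks joined by short gaps were mostly single pairs, which the low share of gaps up to 1 kb, 17.3%, already makes likely. When peaks up to 1 kb apart were joined, 456 of the 547 groups held 2 peaks, 69 held 3, 16 held 4 and 6 held 5 or more. On placed chromosomes a gap of up to 1 kb followed another such gap in 18.3% (15.3 to 21.5) of 619 cases and followed a longer gap in 16.4% (15.1 to 17.7) of 3087, intervals that overlap. Over the 456 pairs of peaks the wider peak had a median of 1968.5 bp (interquartile range 1377 to 3337), the narrower 1128 bp (883 to 1516) and the gap 369 bp (156 to 643), with a median span of 3645 bp. The ratio of the wider to the narrower peak was much the same for close and distant neighbours, with a median of 1.64 (interquartile range 1.26 to 2.43) over all 668 neighbours up to 1 kb apart and 1.67 (1.26 to 2.41) over 3193 further apart. Across placed peaks, the widths of neighbours up to 1 kb apart had a Spearman rho of 0.22 over 624 pairs, and those of neighbours further apart 0.12 over 3111. The pairs share 1 library and a caller, and these weak values are given as a description.

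On a longer scale, gaps of like size tended to follow each other. Successive gaps had a Spearman rho of 0.31 over 3706 pairs on placed chromosomes, part of which is the difference between classes: it was 0.27 on macrochromosomes, 0.20 on microchromosomes and 0.09 on chromosomes 6 to 10. Pooled over placed chromosomes, which include Z with its narrow peaks, the most isolated peaks were slightly narrower. Peaks with their nearest neighbour over 100 kb away had a median of 1247 bp (95% order-statistic interval 1186 to 1326, 724 peaks), against 1469 bp (1414 to 1542, 1135 peaks) for those with a neighbour within 1 kb. Peaks at 1 to 5 kb, 5 to 20 kb and 20 to 100 kb had medians of 1586, 1474 and 1478 bp, so the lower value was found only in the most isolated of these 5 groups. On macrochromosomes the most isolated peaks had 1310 bp (1184 to 1360) and the closest 1448 bp (1370 to 1593), intervals that do not overlap. On microchromosomes they had 1291 bp (1153 to 1595) and 1538 bp (1452 to 1639), with overlap. On chromosomes 6 to 10 the order was the other way, at 1427 bp (1232 to 1867) and 1324.5 bp (1170 to 1484), also with overlap. All these intervals treat peaks as independent, although widths of neighbours were correlated. On macrochromosomes the rho was 0.25 up to 1 kb apart and 0.14 further apart. Whether the intervals overlap is therefore not a test.

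Runs of neighbouring peaks at most 5 kb apart held 1796 of the 4369 peaks, or 41.1% (39.6 to 42.6), in 710 runs; 2573 peaks stood alone. On microchromosomes 53.2% (50.9 to 55.4) of peaks were in a run, on chromosomes 6 to 10 43.8% (39.7 to 48.0), on macrochromosomes 30.3% (27.7 to 33.1) and on Z 20.2% (12.6 to 29.8). A peak is in a run only together with a neighbour. The intervals of these shares treat such tied peaks as independent and are too narrow. Most runs, 495, were pairs. Runs of 5 or more numbered 39 and held 238 peaks, and 29 of the 39 lay on microchromosomes. Those chromosomes also held 1935 of the 4369 peaks and 391 of the 710 runs. The median span of a run was 5.57 kb, and the median share of a run's span that lay within peaks was 80.6%.

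The runs with most peaks were 2 of 9 peaks. The first lay on chromosome 19 from 8864985 to 8913532, with peaks of 1296 to 9917 bp that covered 74.3% of its 48.5 kb. The second lay on chromosome 24 from 5607390 to 5642996, with peaks of 876 to 9511 bp over 72.6% of 35.6 kb. Runs of 8 peaks were found on chromosome 27 from 4030643 to 4062523, on chromosome 3 from 1881067 to 1898455, and at 2 places on chromosome 18. That on chromosome 3 was the most compact of the 15 runs of 7 or more peaks, at 17.4 kb. These runs differ in make-up: the run of 7 peaks on chromosome Z from 42616579 to 42651757 was 89.0% covered, with its widest peak at 13310 bp, whereas a run of 8 peaks on chromosome 18 from 10231945 to 10258785 was 51.2% covered, with none above 4309 bp.

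Chromosome 18 held 4 of the 15 named runs, all within 231 kb. This stretch, from 10027550 to 10258785, had 36 CAP-H peaks, of which 30 were in the 4 runs. Its first run, from 10027550 to 10062239, was the most densely covered of the 15, with 7 peaks over 90.7% of 34.7 kb and no gap above 871 bp. It was also the run with most peaks when peaks were joined only up to 1 kb. Joined up to 20 kb, peaks from 10141326 to 10258785 formed a single run of 24. The remaining runs of 7 were on chromosome 18 from 10141326 to 10169958, chromosome 23 from 5482072 to 5506781, chromosome 27 from 4365985 to 4396141 and from 4980374 to 5003540, chromosome 28 from 2769882 to 2794370, chromosome 4 from 1760418 to 1790260 and 1 unplaced sequence.

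**Figure D3:**
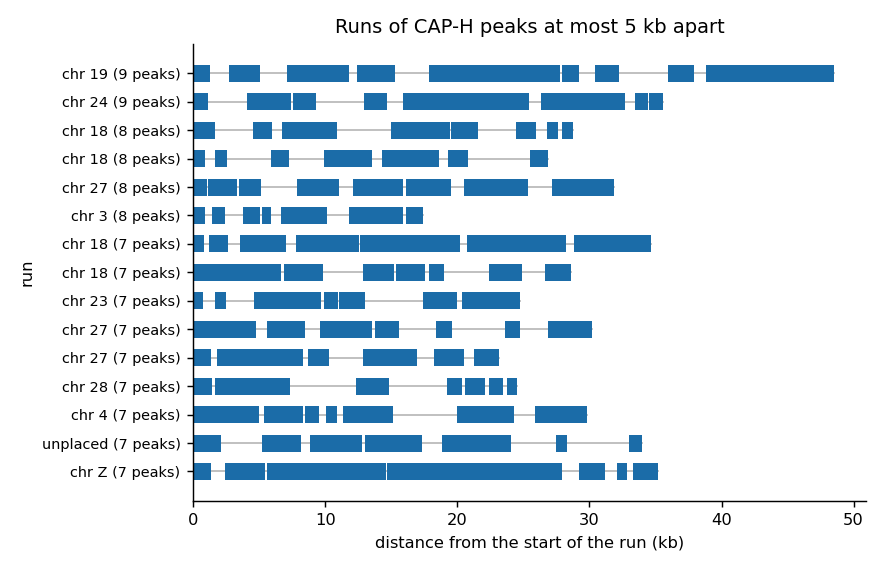
The 15 runs of 7 to 9 CAP-H peaks at most 5 kb apart. The x axis is the distance in kb from the start of each run, bars are peaks and thin lines the gaps between them; the run on chromosome 19 is the longest at 48.5 kb, the run on chromosome 3 the shortest at 17.4 kb, and 4 runs are on chromosome 18.

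Around the TSS, the pull-down signal formed a broad plateau, while the Control column fell into a narrow trough. The profile gives a Sample and a Control value at each base from 5000 bp upstream to 5000 bp downstream, aggregated over a number of TSSs that no source used here states. The header does not say which library Control holds, so whether it is the input of the label was not tested. Within 1000 bp of the TSS the mean Sample signal was 8320 (SD 247 over 40 blocks of 50 bp), 1.25 times its outer flanks, the bases more than 4000 bp from the TSS (6644, SD 137). Within the same window Control was 5720 (SD 680), 0.876 times its flanks (6529, SD 124). Blocks along a profile are not replicates, and their SD holds both the roughness of the curve and its slope within the window. For Control it was 125 within 100 bp of the TSS, against 680 within 1000 bp.

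The plateau rose gradually on the upstream side and fell to lower levels on the downstream side. In bins of 500 bp, Sample was 6748 at the upstream limit, 6973 from 3500 to 3001 bp upstream and 7461 in the bin that starts 2000 bp upstream. The bins that start 1500 and 1000 bp upstream had 7944 and 8234. It was highest in the last 500 bp before the TSS, at 8530 (SD 170 over 10 blocks). The first 500 bp downstream had 8409 (SD 147), which is within that spread. From there it fell to 8109, 7879, 7304 and 6955 in the next 4 bins, and to 6523 at the downstream limit. Downstream signal at 2000 to 2499 bp, 6955, was thus already as low as upstream signal at 3500 to 3001 bp.

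With a running median over 151 bp, about 3 read lengths, the highest value of the plateau, 8703, was at position -365. The highest value from 0 to 300 bp downstream, 8589, was at 89 bp, with a dip to 8322 at position -151 between them. Other dips lay outside the stretch searched. The 50-bp block centred 274.5 bp downstream had 8181, and that centred 374.5 bp downstream 8421. The 50-bp blocks had an SD of 170 in the 500 bp upstream and of 148 in the 500 bp downstream, and with 1 library the dip has no replicate check. At 75% of the rise above the flanks the plateau reached from 770 bp upstream to 477 bp downstream (positions -770 to 477), at 50% from position -1549 to 1410 and at 25% from position -2659 to 1898. The edge at 1410 bp lay just past a step of the curve that is described below. Of the Sample signal within 4000 bp that was above the mean of both flanks, 56.1% lay upstream. With each side set against its own outer flank, a comparison added once the values were known, the share was 49.1%, so whether the plateau itself leans upstream depends on the flank used.

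**Figure D4:**
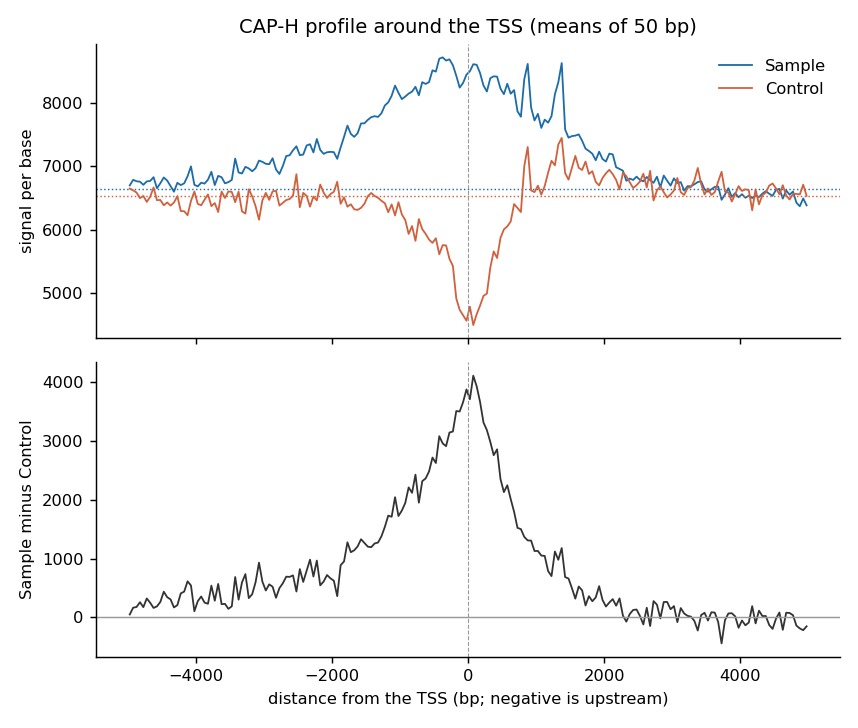
CAP-H profile around the TSS in means of 50 bp, with Sample and Control (upper panel, dotted lines at their flank means) and Sample minus Control (lower panel) against distance from the TSS in bp. Sample forms a plateau more than 2 kb wide, Control dips to a running median of 4572 near the TSS and Sample minus Control has a sharp summit with a longer upstream than downstream slope; the narrow spikes near 854 and 1362 bp are in both columns.

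The Control trough was narrow and steep. Its lowest running median, 4572, was at 17 bp downstream, and it reached 50% of its depth between positions -257 and 349, a width of 607 bp against 2960 bp for the Sample plateau. Within 100 bp of the TSS, Control was 4627, or 0.709 times its flanks. Further out Control was not even. Between 1001 and 2000 bp it was 6933 (SD 220 over 20 blocks) downstream, above its flanks, and 6441 (SD 124) upstream. Its highest running median, 7230, was at 1312 bp downstream, near a step of the curve that is described below.

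Beyond 500 bp Sample and Control were uneven in opposite ways, and their Difference was more lopsided than either. Sample was higher upstream than downstream at every distance band. The excess was small close to the TSS: between 1 and 1000 bp the means were 8382 upstream and 8258 downstream, a difference of 124 (SD 278 over 20 mirrored pairs of blocks), with 14 of 20 pairs higher upstream. It was clearer far from the TSS. Between 2001 and 3000 bp it was 7178 against 6865, a difference of 314 (SD 165), and between 3001 and 4000 bp 6873 against 6653, a difference of 220 (SD 82.3). In the outermost 1000 bp it was 6755 against 6533, a difference of 222 (SD 125). In each of these 3 outer bands all 20 pairs were higher upstream.

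Control went the other way beyond 500 bp. Between 501 and 1000 bp it was 5997 upstream and 6476 downstream, with 0 of 10 block pairs higher upstream, and between 1001 and 2000 bp 1 of 20 was. The downstream side of each of these bands holds a step of both curves, described below. The values given here for these bands include the steps. Inside 500 bp Control was higher upstream, at 5285 against 5123, in 8 of 10 pairs. The Difference between 501 and 1000 bp was therefore 2237 upstream and 1632 downstream, and between 1001 and 2000 bp 1262 (SD 387) and 658 (SD 326). Of that last gap of 604, 112 came from Sample and 492 from Control as deposited. Between 2001 and 3000 bp the gap was 514, of which 314 came from Sample and 201 from Control. Within 500 bp of the TSS the Difference was 3245 upstream and 3285 downstream, a gap inside the spread of block pairs (SD 263).

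**Figure D5:**
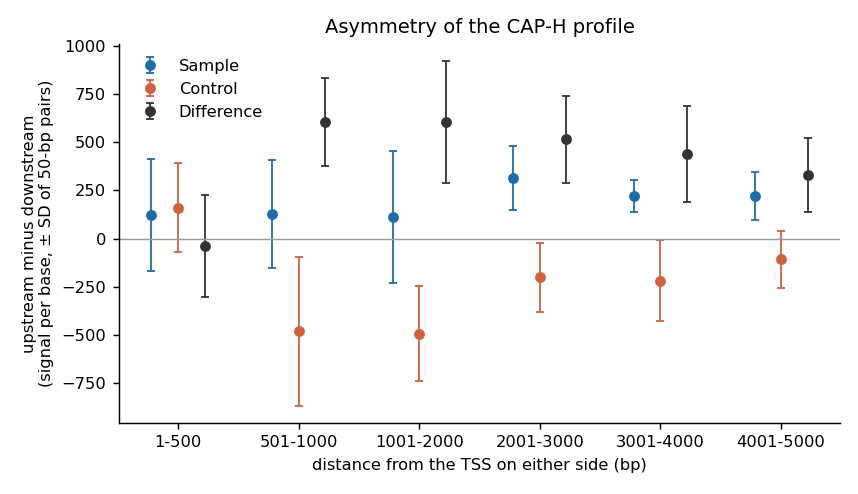
Upstream minus downstream signal of the CAP-H profile in 6 bands of distance from the TSS, for Sample, Control and Sample minus Control; points are means and bars the SD of mirrored pairs of 50-bp blocks, which are not replicates. Sample lies above 0 in all 6 bands, Control below 0 in the 5 bands beyond 500 bp, and Difference above 0 in those same 5 bands.

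The ratio of Sample to Control within 100 bp of the TSS was 1.83. Between 501 and 1000 bp it was 1.37 upstream and 1.25 downstream, between 1001 and 2000 bp 1.20 and 1.09, and between 2001 and 3000 bp 1.10 and 1.02. In the outer flank it was 1.04 upstream and 0.992 downstream, so the columns met downstream but not yet upstream of the TSS. These ratios hold for the scale of Control as deposited. Every Control value was a multiple of 3, whereas Sample values had no common divisor above 1.

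The roughness of the curves bears on that scale and on the depth behind them. Changes from base to base were most negatively correlated with the changes 49 bases further on, with r = -0.35 in Sample and r = -0.49 in Control, which is close to the stated read length of 50 bp. If each read adds 1 to 49 bases and reads fall independently, the mean squared change is 2 times the signal divided by 49. The observed value was 1.24 times this in Sample, 3.13 times in Control as deposited and 1.04 times in Control divided by 3. Read in this way, the Sample curve would rest on 149 read starts per base over all TSSs together and the Control curve on 43.7, a read being counted once for each TSS it lies near. With Control divided by 3, the ratio of Sample to Control within 1000 bp was 4.36 in place of 1.45. In the outer flank the ratio was then 3.13 upstream and 2.98 downstream, in place of 1.04 and 0.992. The division thus raised the ratios near the TSS and in the flanks by the same factor. Between 1001 and 2000 bp the Difference was then 276 higher upstream than downstream, of which 112 came from Sample and 164 from Control, so the share from Sample was 40.5% in place of 18.5% while the direction held. Within 500 bp the direction turned, with the Difference 67.9 higher upstream in place of 39.7 lower. With Control divided by 3 the columns no longer met in the flanks, and less of Control was subtracted. The Difference then followed the asymmetry of Sample more closely by construction.

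At 2 places, both downstream of the TSS, the curves had steps that stood above their surroundings by more than 4 robust SDs in both columns. The first, centred 854 bp downstream and about 1 read long, rose 1222 above its surroundings in Sample and 1262 in Control, or 421 with Control divided by 3. The second, centred 1362 bp downstream in Sample, rose 773 there and 567 in Control. The profile does not show how many TSSs contribute to them. The steps were then replaced by straight lines over 311 bases, which was decided on once the curves had been seen. The Sample plateau at 50% of its rise changed from 2960 to 2950 bp. Its downstream edge lay just past the second step, on a wider rise of the curve. The 50-bp blocks centred 1074.5, 1224.5, 1274.5 and 1374.5 bp downstream had 7607, 7792, 8139 and 8630. The small change in width thus does not show that the edge is free of that rise. The upstream-to-downstream ratio within 1000 bp changed from 1.01 to 1.02 in Sample and from 0.973 to 0.985 in Control.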

How the data were processed

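The submitters' processing notes name BWA and galGal4, with no versions. Peak names carry the prefix of the caller MACS, per the deposited file; no source used here states how the caller was run. The authors' list gives a start, an end and no score, and its starts begin at 0, so 1 was added to each printed start. The deposited profile holds a whole-number signal per base in the columns Sample and Control and, per the file headers, their Difference, which equalled Sample minus Control at all 10001 positions. Peaks were sorted, and widths, edge-to-edge gaps and runs (neighbours up to 5 kb apart) were computed from all 4369. Gaps were taken only between peaks of the same sequence.

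Shares have exact Clopper-Pearson intervals and medians exact order-statistic intervals, both at 95% and for counting error only. Both treat peaks or gaps as independent, which peaks of the same run are not. Whether 2 intervals overlap is therefore not a test. Outer flanks lie beyond 4000 bp, smoothing is a running median over 151 bp, and SDs are over blocks of 50 bp. A step is a mean over 49 bp that exceeds its surroundings by more than 4 robust SDs. No file states the number of reads per library. Regions were named by rule: the 10 runs with most peaks (15 with ties), the 5 widest gaps, the 5 closest pairs (9 with ties), the most isolated and the narrowest peak, and the extreme chromosomes of those with at least 50 peaks. Members, measures and rules were chosen with earlier results of these data known. Alternatives covered the sequences used, joining of peaks, limits of distance, flanks, windows, smoothing and the scale of Control. The functions were tested on simulated peaks and coverage. Python 3.11.15, numpy 2.4.6, pandas 2.3.3, scipy 1.17.1 and matplotlib 3.10.9 were used.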

Additional observations from a re-analysis of the deposited data

How the results depend on the processing

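No paired analysis was possible because there is 1 library per group. Of 58 values under other settings, 35 stayed within the spread given to the reported value (a 95% interval for peaks, the SD over blocks for profile means and ratios, and 1 read length for the plateau width), 22 moved beyond it and 1, for which no spread was set, reversed. A value could stay within the spread and still change direction, as the asymmetries of Difference and Control did within 500 bp of the TSS. The SD over blocks includes the shape of the curve, and for the Difference within 1000 bp the spread ran from -125.5 to 690.8. Staying within such a spread does not show that a value is stable. The interval for peaks in runs is too narrow, so a move beyond it is also a weak sign. On placed chromosomes alone the median width was 1440 bp and 43.9% of peaks were in runs. With peaks up to 500 bp apart joined, the median width was 1487 bp, the median gap 48.4 kb, the share of gaps up to 5 kb 19.5% and the share in runs 29.5%. Without peaks of 5 kb or wider these were 1339.5 bp, 37.5 kb, 25.9% and 38.6%. Measured between centres, 22.8% of gaps were up to 5 kb; 17.3% and 34.3% of edge-to-edge gaps were up to 1 kb and 10 kb. Joining up to 1, 10 and 20 kb put 27.8%, 47.3% and 55.6% of peaks in runs.

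The Sample plateau at mid height was 2626 bp wide with flanks beyond 3000 bp and 2565 bp with the upstream flank alone. With a running median over 51 bp it was 133 bp, since the highest value then lay at 835 bp, in the step there. Within 100 bp of the TSS, Control was 0.709 times its flanks and Sample 1.83 times Control. With Control divided by 3, Sample within 1000 bp was 4.36 times Control, against 3.13 times in the outer flank upstream and 2.98 times downstream. The upstream share of Sample signal above the flanks, 56.1%, reversed to 49.1% with each side set against its own flank. The Difference within 500 bp was 39.7 lower upstream, against 283 higher within 1000 bp. The upstream-to-downstream ratio of Control was 1.03 within 500 bp, against 0.973 within 1000 bp. Both changes of direction lay inside the spread over blocks. That spread includes the shape of the curve and does not measure how stable a value is. Other flanks were not run for the ratio of Sample to Control at the TSS, which does not use them. With 1 library, no setting shows how far a second library would differ.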

Other observations

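Sequence not placed on a chromosome held 604 CAP-H peaks on 478 sequences, of which 418 had a single peak. Gaps there numbered 126, with a median of 1.94 kb.

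Sample was below Control at 1329 of the 10001 positions of the profile. Of these, 1291 were downstream of the TSS, the first at 2274 bp, and 38 were upstream, the nearest to the TSS at position -3366. The count depends on the scale of Control as deposited.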
